A study of Homo sapiens with 12 samples.

Results

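The 10 epithelial-mesenchymal state genes were the cadherins CDH1, CDH3 and CDH2, the surface glycoprotein gene EPCAM, VIM, FN1 and the transcription factor genes SNAI1, SNAI2, ZEB1 and ZEB2. They were taken by symbol from the 19225 entries of the deposited count table, and all 10 were among the 14360 genes that passed the filter on low counts. HN6 and HN30 are human oral squamous cell carcinoma (OSCC) lines. Cells of each line received Lipofectamine RNAiMAX with a scrambled control siRNA (NC), with siFAT1-1 or with siFAT1-2, and poly(A) RNA was sequenced 24 h later, with 2 repeats for every one of the 6 conditions. The 12 libraries thus held 4 NC and 8 FAT1 knockdown (KD) libraries, and all of them, the controls included, came from transfected cultures. The titles of the KD samples name hairpins 1 and 2 while their descriptions name siRNAs 1 and 2, and the groups were read as siFAT1-1 and siFAT1-2. Each arm stands for a single cell line, so a difference between HN6 and HN30 is a difference between these lines and not between kinds of tumor. The comparisons asked how much of the epithelial and of the mesenchymal program each line expressed, and whether these genes differed when FAT1 was lowered.

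Epithelial cells are held together by adherens junctions, in which E-cadherin (CDH1) or P-cadherin (CDH3) of neighboring cells bind each other and are anchored to actin through catenins. In epithelial-mesenchymal transition (EMT) carcinoma cells lose these contacts, express N-cadherin (CDH2), the intermediate filament vimentin (VIM) and the matrix protein fibronectin (FN1), and gain motility. SNAI1, SNAI2, ZEB1 and ZEB2 encode zinc finger repressors that bind E-box sequences in the promoters of epithelial genes such as CDH1. Head and neck carcinoma cells often hold both programs at once, which is called a hybrid or partial EMT state, and FAT1, an atypical cadherin often mutated in squamous carcinoma, has been linked to it in other work.

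Library totals ranged from 26430049 to 47639010 counts. FAT1 was lower in each KD library than in the NC libraries of its line, at 56.7 and 66.8 CPM (counts scaled to library size) with NC against 7.60 to 21.4 CPM with KD in HN6, and at 13.6 and 14.8 against 4.85 to 10.8 CPM in HN30 (pooled log2 fold change -1.59 ± 0.31 SE, edgeR adjusted p = 0.0413). The direction held in all 19 alternatives, while the adjusted p was under 0.05 in 6 of them, at 0.0783 with a block for the replicate number, 0.125 without repeat 1 of HN6 NC, 0.104 without repeat 1 of HN30 NC and 0.339 without the cell line term (edgeR). The lines carried squamous markers, with 12 to 14 of 14 listed genes counted in each library and a summed level of 1050 to 5380 CPM in HN6 and 763 to 2600 CPM in HN30. Markers of other cell types were low but not absent. The summed levels of 9 fibroblast markers were 70.0 to 164 CPM in HN6 and 31.9 to 76.3 CPM in HN30, those of 9 leukocyte markers 73.0 to 124 and 24.5 to 36.1 CPM, and those of 5 endothelial markers 0.968 to 8.97 and 0.202 to 3.51 CPM. Of the fibroblast markers 4 to 9 were counted in each library, of the leukocyte markers 2 to 6 and of the endothelial markers 2 to 5. Among these markers, MS4A1 was at 0 in all 12 libraries, PTPRC was at 0 in 11, and COL1A2, COL3A1 and THY1 were at 0 in 8 each. Others were counted in every library, such as COL1A1 (11.1 to 145.9 CPM), FAP (0.111 to 37.6 CPM), CD68 (16.1 to 121.2 CPM) and CD14 (2.07 to 14.96 CPM). The HN6 NC repeats stood apart from each other, with 23.7% of all genes over 2-fold apart against 4.85% to 19.6% in the other conditions. VIM, SNAI1, ZEB1 and ZEB2 were all over 2-fold higher in repeat 1 of HN6 NC, and results that rest on this library are given with and without it.

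**Figure D1:**
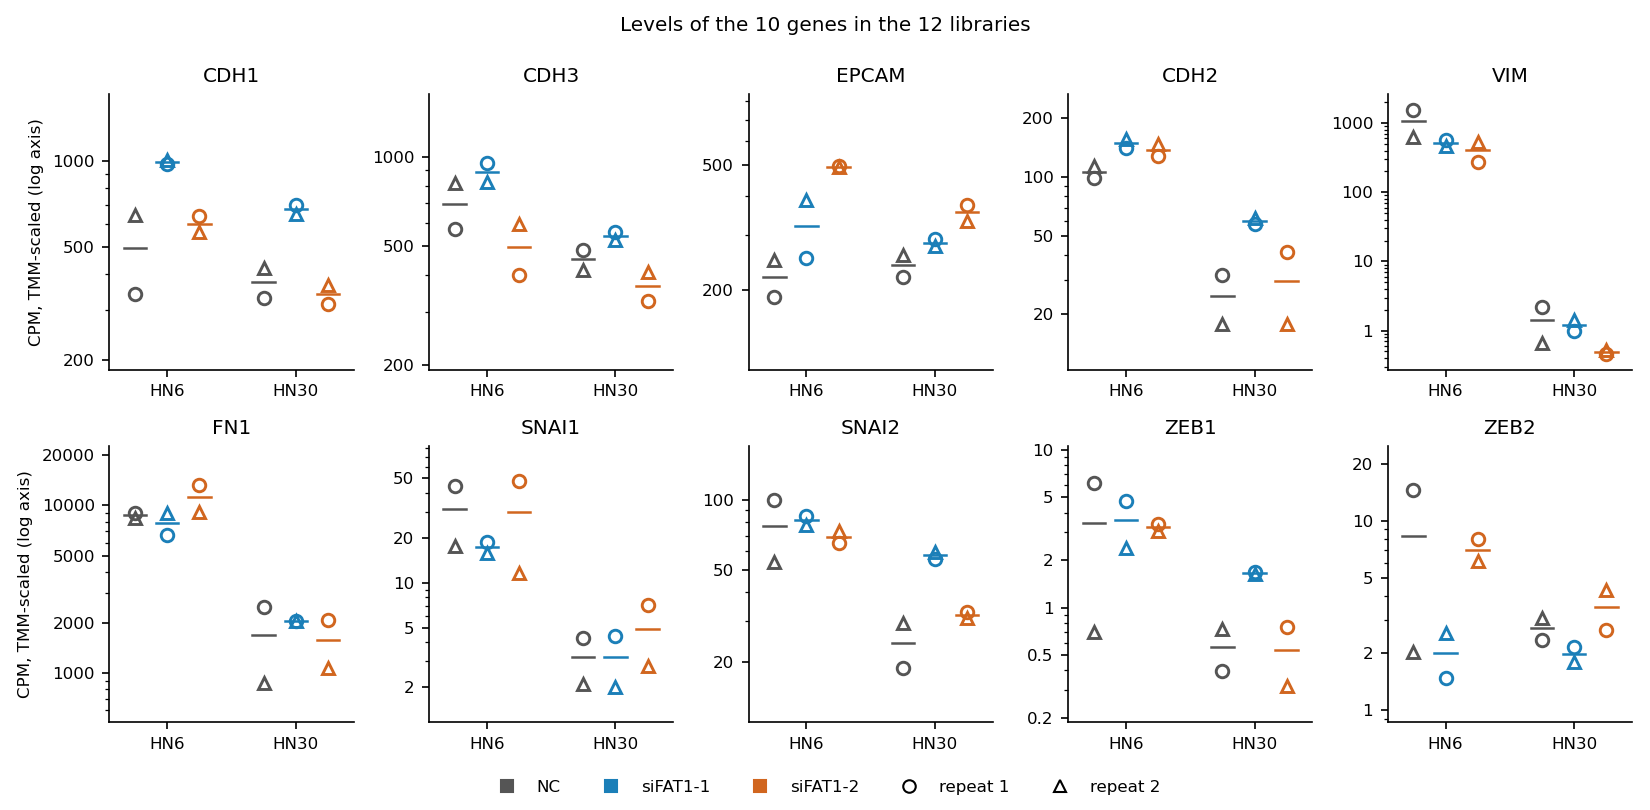
Level of each of the 10 genes in the 12 libraries, in TMM-scaled CPM on a log axis, with HN6 on the left and HN30 on the right of each panel. Colors give the siRNA, circles and triangles repeats 1 and 2, and bars the mean of both repeats. VIM lies at 277 to 1546 CPM in HN6 and at 0.461 to 2.18 CPM in HN30, while EPCAM lies in a similar range in both lines.

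Per transcript length, fibronectin was the most abundant of the 10 genes in HN6 and epithelial genes made up most of the rest in HN30. Levels between genes were compared as CPM per kilobase (RPKM), with the length of the GENCODE 44 canonical transcript. In HN6 NC the order of the mean RPKM was FN1 (1039.7 ± 45.7 SD, n = 2), VIM (502.7 ± 304), CDH3 (156.1 ± 38.8), EPCAM (142.3 ± 27.6), CDH1 (102.7 ± 44.8), SNAI2 (35.2 ± 14.9), CDH2 (26.5 ± 2.66), SNAI1 (18.3 ± 11.2), ZEB2 (0.894 ± 0.954) and ZEB1 (0.582 ± 0.655). The libraries of CDH3, EPCAM and CDH1 overlapped as neighbors in this order, as did those of SNAI2, CDH2 and SNAI1 and those of ZEB2 and ZEB1. In HN30 NC the order was FN1 (200.2 ± 137), EPCAM (155.6 ± 17.8), CDH3 (101.6 ± 11.3), CDH1 (78.1 ± 13.2), SNAI2 (11.1 ± 3.44), CDH2 (6.17 ± 2.46), SNAI1 (1.88 ± 0.914), VIM (0.658 ± 0.5), ZEB2 (0.292 ± 0.0541) and ZEB1 (0.0951 ± 0.0401). Here only FN1 with EPCAM and VIM with ZEB2 overlapped. VIM was thus next to FN1 at the top in HN6 and among the repressor genes at the bottom in HN30. With KD, EPCAM moved ahead of VIM in HN6 siFAT1-2 (320.3 ± 0.904 against 187.2 ± 82.6 RPKM) and stood above FN1 in HN30 siFAT1-2 (228.9 ± 18.8 against 186.5 ± 84.5 RPKM), although the libraries of the latter pair overlapped.

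Both lines expressed E-cadherin and P-cadherin together with some N-cadherin. Of the summed RPKM of CDH1, CDH2 and CDH3, CDH2 took 11% and 8.19% in the HN6 NC libraries, 7.77% and 8.95% with siFAT1-1 and 12.5% and 12.7% with siFAT1-2. In HN30 its share was 4.24% and 2.39% with NC, 5.03% and 5.71% with siFAT1-1 and 6.92% and 2.58% with siFAT1-2. The 6 HN6 libraries thus lay above the 6 HN30 libraries. CDH1 took 31.7% to 52.1% and CDH3 35.3% to 58.8% of the sum over all 12 libraries, and neither share set the lines apart. The ratio of CDH1 to VIM per length was 0.0990 and 0.467 in repeats 1 and 2 of HN6 NC and 0.475 to 1.03 with KD. The 4 KD libraries of HN6 lay above both controls, but repeat 2 of siFAT1-2 exceeded repeat 2 of NC only by a small margin. How often other ratios lie apart in this way was not tested. In HN30 the ratio was 68.1 and 287 with NC and 207 to 324 with KD, which overlapped.

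**Figure D2:**
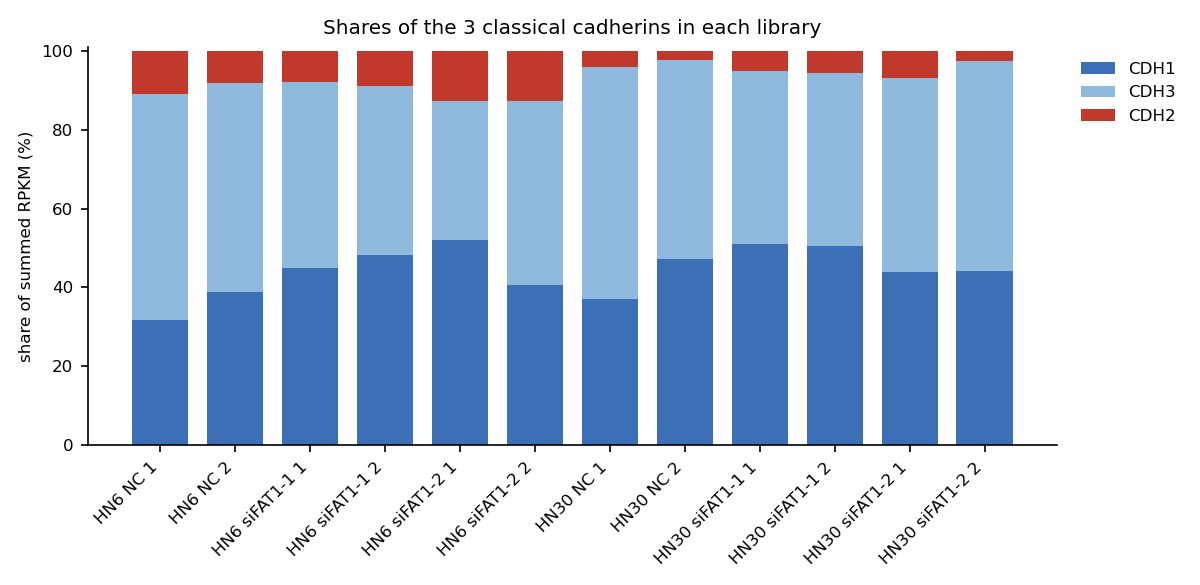
Share of CDH1, CDH3 and CDH2 in their summed RPKM, in percent, as stacked bars for each of the 12 libraries. CDH2 takes 7.77% to 12.7% in the HN6 libraries and 2.39% to 6.92% in the HN30 libraries.

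Between the control cultures, the mesenchymal genes and most of the repressor genes were lower in HN30 than in HN6 and the epithelial genes were not called. The thresholds were those of the study, an unadjusted P under 0.05 with an absolute log2 fold change above 1. CDH2, VIM, FN1, SNAI1, SNAI2 and ZEB1 passed them, all lower in HN30, which makes 6 of 10 genes against 30.5% of all genes tested. The same 6 had an adjusted p under 0.05 with edgeR, against 31.3% of all genes. Of these, ZEB1 fell to -0.33 without repeat 1 of HN6 NC. By either rule limma-voom called 5 of the 10, without ZEB1. DESeq2 called 7 by the thresholds, ZEB2 included, and 6 by adjusted p. In CDH2, VIM, FN1 and SNAI1 all 6 HN30 libraries, KD included, lay below all 6 HN6 libraries, a pattern found in 25.7% of all genes in either direction. In bulk RNA, fewer cells of a type and less RNA per cell cannot be told apart. The summed fibroblast and leukocyte markers were also lower in the HN30 controls, at 31.9 and 35.1 CPM against 74.8 and 74.5 CPM for fibroblast markers and at 36.1 and 27.9 against 102.0 and 89.1 CPM for leukocyte markers. Their part in the difference between the lines was not tested.

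Among the epithelial genes, CDH1 was at 342 and 646 CPM in the HN6 NC libraries and at 331 and 421 CPM in the HN30 NC libraries. The groups overlapped, and the difference of -0.39 ± 0.27 (log2 fold change ± SE, HN30 minus HN6) had an adjusted p of 0.293 with edgeR. Without repeat 1 of HN6 NC it was -0.80 with an edgeR adjusted p of 0.0167, and without repeat 2 it turned to 0.13. CDH3, whose gene ends 9823 bases before CDH1 on the same strand of chromosome 16, was at 573 and 817 CPM in HN6 NC and at 488 and 417 CPM in HN30 NC. It did not overlap between the controls, with a log2 fold change of -0.62 ± 0.25 and an adjusted p of 0.0840 with edgeR, or of 0.0277 (-0.87) without repeat 1 of HN6 NC, and the fold change was -0.35 without repeat 2. EPCAM, which encodes a homophilic adhesion molecule of simple epithelia, was at 189.9 and 250.4 CPM in HN6 NC and at 221 and 260.1 CPM in HN30 NC. Its difference was 0.13 on the log2 scale, with an interval of 2 SE from -0.34 to 0.59. With the mean of the 3 conditions of each line, KD included, CDH1 and CDH3 were both lower in HN30. Each was at -0.59 in that fit (edgeR, adjusted p = 0.00982 for CDH1 and 0.00590 for CDH3), and EPCAM was at -0.18.

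VIM carried the largest difference between the lines among the 10 genes. It was at 1546 and 619.6 CPM in the HN6 NC libraries and at 2.18 and 0.657 CPM in the HN30 NC libraries, on 45328 and 21965 counts against 77 and 26. VIM was 767-fold lower in HN30, a log2 fold change of -9.58 ± 0.76 (edgeR, adjusted p = 4.07e-05), and the value stayed between -10.7 and -8.80 when single libraries were left out. FN1 was at 8994 and 8452 CPM in HN6 NC and at 2493 and 867 CPM in HN30 NC, 5.19-fold lower (log2 fold change -2.38 ± 0.47, edgeR adjusted p = 0.00536). The HN30 NC repeats of FN1 differed 2.87-fold from each other, and still lay below both HN6 NC libraries. CDH2 was at 98.9 and 114 CPM in HN6 NC and at 31.7 and 17.8 CPM in HN30 NC, 4.30-fold lower (log2 fold change -2.10 ± 0.39, edgeR adjusted p = 0.00366). The values of FN1 and CDH2 when single libraries were left out ran from -3.33 to -1.81 and from -2.58 to -1.75.

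VIM, FN1 and CDH2 were the mesenchymal genes that were lower together in HN30, and their promoters are shown for that reason. The 250 bases before the RefSeq start of each gene (GRCh38.p14) lie at chr10:17227991-17228240 on the plus strand for VIM, chr2:215436069-215436318 on the minus strand for FN1 and chr18:28177131-28177380 on the minus strand for CDH2. They are written 5′ to 3′ along the gene, with matches to the searched motifs in capitals.
VIM: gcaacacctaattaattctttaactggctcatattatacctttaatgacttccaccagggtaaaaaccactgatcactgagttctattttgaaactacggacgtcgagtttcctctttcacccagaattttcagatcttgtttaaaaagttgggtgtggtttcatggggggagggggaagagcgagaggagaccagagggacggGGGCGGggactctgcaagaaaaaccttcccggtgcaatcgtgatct
FN1: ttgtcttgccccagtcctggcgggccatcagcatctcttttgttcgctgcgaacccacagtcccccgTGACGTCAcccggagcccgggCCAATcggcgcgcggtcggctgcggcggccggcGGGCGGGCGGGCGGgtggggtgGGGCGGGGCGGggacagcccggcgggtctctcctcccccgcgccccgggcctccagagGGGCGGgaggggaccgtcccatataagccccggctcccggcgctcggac
CDH2: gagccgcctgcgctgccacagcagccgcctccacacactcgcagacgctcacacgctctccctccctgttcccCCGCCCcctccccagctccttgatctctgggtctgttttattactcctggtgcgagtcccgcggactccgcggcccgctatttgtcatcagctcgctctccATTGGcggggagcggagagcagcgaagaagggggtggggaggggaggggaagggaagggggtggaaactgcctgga
The motifs searched on both strands were the E-box CACCTG, the cAMP response element TGACGTCA, the AP-1 site TGANTCA, the GC box GGGCGG, the CCAAT box CCAAT and the TATA box TATAAA. VIM held 1 GC box. FN1 held 1 cAMP response element, 1 CCAAT box and 6 matches to the GC box, some of which overlapped each other. CDH2 held 1 GC box and 1 CCAAT box, both read on the other strand. Of 35116 RefSeq promoter windows of this length, 42.6% held a GC box, 32% a CCAAT box, 1.65% a cAMP response element, 17.5% the E-box, 6.57% the AP-1 site and 6.8% the TATA box. The E-box letters were in none of these 3 windows. Of the other genes, ZEB1 and ZEB2 also had an entry in the promoter table and CDH1, CDH3, EPCAM, SNAI1 and SNAI2 had none.

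The repressor genes SNAI1 and SNAI2 were lower in HN30 as well, while the differences of ZEB1 and ZEB2 depended on repeat 1 of HN6 NC. SNAI2, which encodes SLUG, was at 99.7 and 53.8 CPM in HN6 NC and at 18.8 and 29.4 CPM in HN30 NC. It was 3.18-fold lower (log2 fold change -1.67 ± 0.32, edgeR adjusted p = 0.00407), and the controls did not overlap. SNAI1 was at 44.7 and 17.7 CPM in HN6 NC and at 4.30 and 2.10 CPM in HN30 NC, 9.76-fold lower (log2 fold change -3.29 ± 0.80, edgeR adjusted p = 0.0125, or 0.0947 without repeat 2 of HN30 NC). Both ZEB genes were scarce. ZEB1 was at 6.21 and 0.705 CPM in HN6 NC, 182 and 25 counts, and at 0.396 and 0.733 CPM in HN30 NC, 14 and 29 counts. The difference was -2.60 ± 0.89 (edgeR, adjusted p = 0.0484). Repeat 1 of HN6 NC stood above the other 3 controls, which lay between 0.396 and 0.733 CPM, and without it the difference was -0.33 (edgeR, adjusted p = 0.738). ZEB1 also missed the thresholds without repeat 1 of HN30 NC (-2.23), with limma-voom (-1.85) and in a fit of the 4 NC libraries alone (-2.60), and with a replicate block its edgeR adjusted p was 0.0619. ZEB2 was at 14.5 and 2.03 CPM in HN6 NC and at 2.35 and 3.06 CPM in HN30 NC. These overlapped, and the difference of -1.61 ± 0.73 had an adjusted p of 0.117 with edgeR and turned to 0.39 without repeat 1 of HN6 NC.

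**Figure D3:**
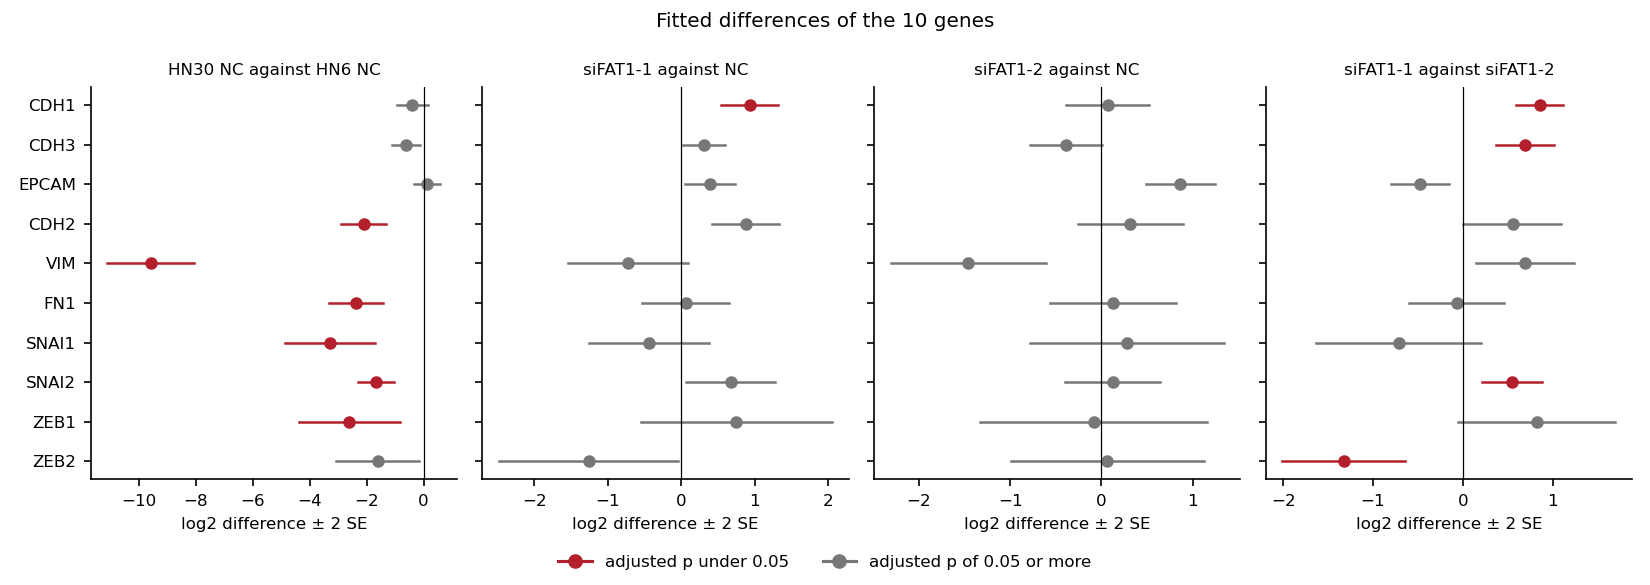
Fitted log2 differences of the 10 genes with bars of 2 SE, for HN30 NC against HN6 NC, each siRNA against NC, and siFAT1-1 against siFAT1-2. Red marks an edgeR adjusted p under 0.05. The mesenchymal and repressor genes lie left of 0 in the first panel, and CDH1 lies right of 0 with siFAT1-1 and near 0 with siFAT1-2.

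When both siRNAs were pooled as KD, VIM was lower and passed the thresholds of the study, and none of the 10 genes reached an adjusted p under 0.05 with edgeR. VIM made 1 of 10 genes called, against 3.2% of all genes. At an adjusted p under 0.05 edgeR called 0 of the 10 and 0.522% of all genes, which were 75 genes, or 44 with the replicate block. EPCAM, CDH2 and VIM were the 3 members with an unadjusted P under 0.05 with edgeR, and at an adjusted p under 0.05 limma-voom called 0 members and DESeq2 called EPCAM alone. In EPCAM, and in no other member, the 8 KD libraries all lay to one side of the controls of their own line, as 5.29% of all genes did in either direction.

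EPCAM was higher in each KD library than in the controls of its line, by a small margin in repeat 1 of HN6 siFAT1-1. In HN6 it was at 189.9 and 250.4 CPM with NC, 253 and 387 CPM with siFAT1-1 and 496 and 494 CPM with siFAT1-2. In HN30 it was at 221 and 260.1 CPM with NC, 292 and 276 CPM with siFAT1-1 and 375 and 334 CPM with siFAT1-2. Over both lines the log2 fold change was 0.64 ± 0.20, 1.56-fold, with an edgeR adjusted p of 0.178. CDH1 was at 979 and 1009 CPM with siFAT1-1 and at 640 and 562 CPM with siFAT1-2 in HN6, and at 702 and 653 CPM and 314 and 367 CPM in HN30. Set against its controls given above, all siFAT1-1 libraries lay above NC, while the siFAT1-2 libraries lay within the HN6 controls and reached below the HN30 controls. Pooled over the siRNAs CDH1 had a log2 fold change of 0.56 ± 0.27 with an adjusted p of 0.367 (edgeR). CDH3 had a pooled log2 fold change of 0.00 ± 0.22, with an interval of 2 SE from -0.45 to 0.45.

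Vimentin transcripts were fewer after KD in HN6, and the size of the drop depended on a control library. In HN6, VIM was at 1546 and 619.6 CPM with NC, 579 and 464 CPM with siFAT1-1 and 277 and 529 CPM with siFAT1-2. All 4 KD libraries lay below both controls, repeat 2 of NC by a small margin. In HN30, where VIM was close to absent, it was at 2.18 and 0.657 CPM with NC, 0.970 and 1.42 CPM with siFAT1-1 and 0.461 and 0.525 CPM with siFAT1-2, and the siFAT1-1 libraries lay between the controls. Within HN30 the log2 fold change of VIM was -0.75, and it turned to 0.36 without repeat 1 of NC. The pooled log2 fold change was -1.02 ± 0.36 with an adjusted p of 0.229 (edgeR). It was -0.62 without repeat 1 of HN6 NC, -0.81 without repeat 1 of HN30 NC and -0.94 with the replicate block, and VIM no longer passed the thresholds in these fits. Its fold change also fell short of the threshold without repeat 1 of siFAT1-2 in HN6 (-0.91) or in HN30 (-0.96) and without repeat 2 of siFAT1-2 in HN30 (-0.97). The summed fibroblast markers were at 74.8 and 74.5 CPM with NC and 70.0 to 164 CPM with KD in HN6, and at 31.9 and 35.1 CPM with NC and 49.3 to 76.3 CPM with KD in HN30, and their part in these results was not tested. The other mesenchymal genes did not pass. CDH2 had a pooled log2 fold change of 0.63 ± 0.28 (edgeR, adjusted p = 0.337), opposite in sign to VIM, and FN1 one of 0.11 ± 0.27, with an interval from -0.44 to 0.66.

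None of the repressor genes passed in the pooled comparison. Their log2 fold changes were -0.05 ± 0.45 for SNAI1, 0.41 ± 0.27 for SNAI2, 0.41 ± 0.56 for ZEB1 and -0.46 ± 0.52 for ZEB2, with edgeR adjusted p from 0.520 to 0.974. Without repeat 1 of HN6 NC, ZEB1 passed the thresholds at 1.38. SNAI1 was higher in repeat 1 than in repeat 2 in all 6 conditions, by 1.19-fold (HN6 siFAT1-1) to 4.11-fold (HN6 siFAT1-2), and was the only member on 1 side in all 6, against 8.42% of all genes in either direction. The titles mark the repeats as time1 and time2, and the labels do not say whether these were separate times.

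**Figure D4:**
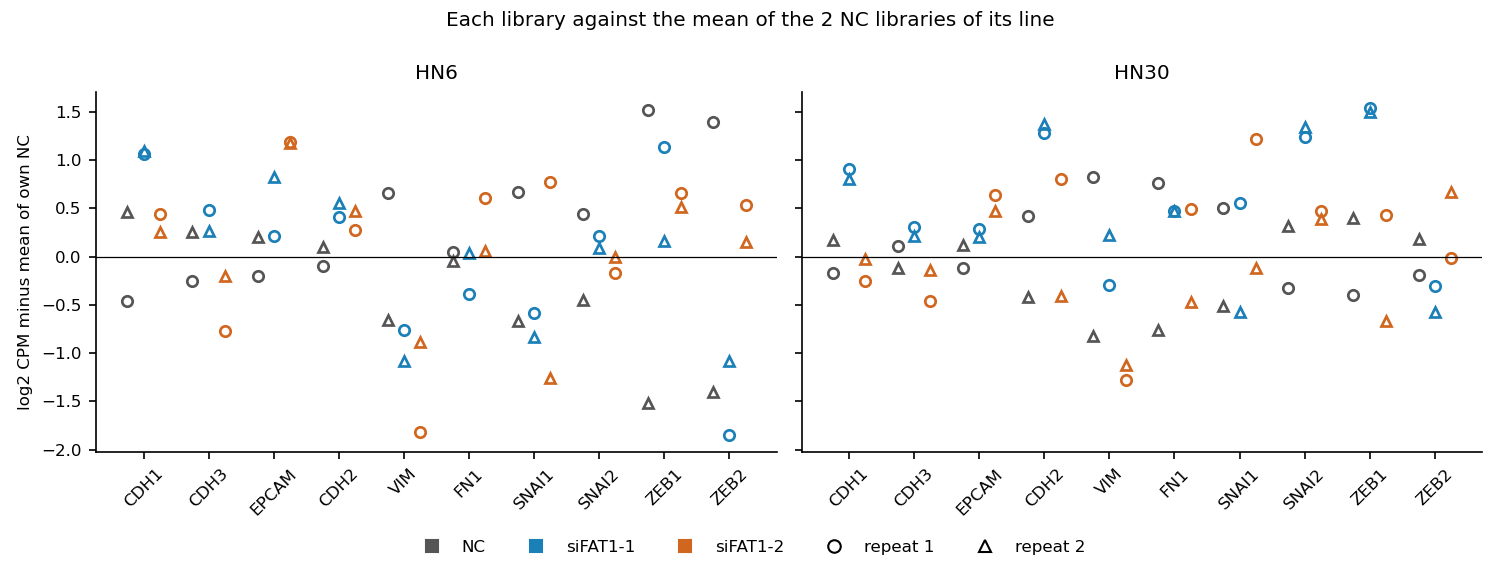
Log2 CPM (with a prior count of 2) of each library minus the mean of the NC libraries of its line, for the 10 genes in HN6 and HN30. Colors give the siRNA and symbols the repeat. EPCAM lies above both controls in all 8 KD libraries, and the HN6 NC repeats of VIM, SNAI1, ZEB1 and ZEB2 lie far apart.

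Within HN6, VIM was again the only member called, 1 of 10 genes against 3.03% of all genes. Its log2 fold change was -1.23 ± 0.40 (edgeR, adjusted p = 0.817) and became -0.43, past neither threshold, without repeat 1 of NC. EPCAM had a log2 fold change of 0.89 ± 0.33, with an interval of 2 SE from 0.23 to 1.54. Within HN30, 0 of the 10 genes were called by edgeR, limma-voom and DESeq2, against 3.9% of all genes with edgeR, and SNAI2 was the member with an unadjusted P under 0.05 (log2 fold change 0.89 ± 0.37). At an adjusted p under 0.05 edgeR called 0.0% of all genes in each line, limma-voom called 0 in both and DESeq2 66 and 179. With edgeR 792 genes in HN6 and 1268 in HN30 had an unadjusted P under 0.05. These fits took both siRNAs as 1 group, so differences between the siRNAs entered the spread. With a mean for each of the 6 conditions over all 12 libraries, edgeR called 1 gene in HN6 and 8 in HN30 at an adjusted p under 0.05. In that fit 1993 and 2006 genes had an unadjusted P under 0.05. The interaction of cell line and KD was called in 0 of the 10 genes by all 3 tools, and 0 of them had an unadjusted P under 0.05. Of all genes 1.87% were called for the interaction and 0.0% had an adjusted p under 0.05, with 317 genes at an unadjusted P under 0.05 and 0 at an adjusted p with limma-voom or DESeq2. The member with the smallest P was SNAI2, whose KD response was 0.92 ± 0.49 higher in HN30 on the log2 scale, with an interval of 2 SE from -0.05 to 1.89.

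With siFAT1-1, CDH1 was 1.90-fold higher than NC (log2 fold change 0.93 ± 0.20, edgeR adjusted p = 0.0380), the only member with an adjusted p under 0.05 in edgeR, against 4.12% of all genes, which were 591 genes, or 152 with the replicate block. None of the 10 passed both thresholds of the study in edgeR or limma-voom, against 6.15% of all genes, and DESeq2 called 1, ZEB2 (-1.24). In edgeR ZEB2 had a log2 fold change of -1.26 ± 0.61, which was -0.29 without repeat 1 of HN6 NC and -1.53, past the thresholds, without repeat 2. CDH1, EPCAM and CDH2 had an unadjusted P under 0.05 in the edgeR fit. CDH2 was at 141 and 156 CPM with siFAT1-1 against 98.9 and 114 CPM with NC in HN6, and at 57.7 and 61.6 CPM against 31.7 and 17.8 CPM in HN30. All 4 siFAT1-1 libraries were above their controls, with a log2 fold change of 0.87 ± 0.23 and an adjusted p of 0.0695 with edgeR, 0.0647 with limma-voom and 0.00918 with DESeq2. E-cadherin and N-cadherin transcripts were thus both on the high side of NC with this siRNA. CDH1 lost the adjusted threshold with the replicate block (adjusted p = 0.0627, edgeR) and when any of the siFAT1-1 libraries or HN30 NC libraries was left out (adjusted p 0.0652 to 0.149), while its log2 fold change stayed between 0.75 and 1.11. ZEB1 had a log2 fold change of 0.75 and passed the thresholds with the block, at 1.10, and without repeat 1 of HN6 NC, at 1.85 (edgeR, adjusted p = 0.0341). SNAI2, at 0.67, had an edgeR adjusted p of 0.0267 without that library.

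With siFAT1-2, VIM was 2.75-fold lower than NC (log2 fold change -1.46 ± 0.42, adjusted p = 0.101 with edgeR, 0.113 with limma-voom and 0.0211 with DESeq2). It was the only member past the thresholds of the study, against 8.04% of all genes, and stayed past them in every alternative run, at -1.09 without repeat 1 of HN6 NC. EPCAM was 1.82-fold higher (log2 fold change 0.86 ± 0.19, edgeR adjusted p = 0.0587) and had an adjusted p under 0.05 with limma-voom and DESeq2. With edgeR 0 of the 10 had an adjusted p under 0.05, against 1.09% of all genes (157 genes, or 340 with the block), and EPCAM and VIM had an unadjusted P under 0.05. CDH1 had a log2 fold change of 0.07 ± 0.23, with an interval of 2 SE from -0.38 to 0.52, and CDH2 one of 0.32 ± 0.29. Both siRNAs were set against the same 4 NC libraries.

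Compared directly, siFAT1-1 left more CDH1, CDH3 and SNAI2 and less ZEB2 than siFAT1-2 in both lines. These 4 of 10 genes had an adjusted p under 0.05 with edgeR, against 20.9% of all genes, and ZEB2 was the 1 of 10 past the thresholds of the study, against 12.9%. CDH1 was 1.81-fold higher with siFAT1-1 (log2 fold change 0.86 ± 0.13, edgeR adjusted p = 0.00423), with an adjusted p under 0.05 in all 14 alternatives. CDH3 was at 955 and 824 CPM with siFAT1-1 against 402 and 595 CPM with siFAT1-2 in HN6, and at 557 and 524 CPM against 327 and 409.7 CPM in HN30. It was 1.62-fold higher (log2 fold change 0.69 ± 0.17, edgeR adjusted p = 0.0180), and no library of siFAT1-1 overlapped one of siFAT1-2 in its line. SNAI2 was at 85.1 and 77.8 CPM against 64.9 and 73.0 CPM in HN6, and at 55.5 and 59.7 CPM against 32.7 and 30.9 CPM in HN30, 1.46-fold higher with siFAT1-1 (edgeR, adjusted p = 0.0432). The libraries of both siRNAs lay apart for SNAI2 in each line, by the wider margin in HN30. ZEB2 was at 1.47 and 2.55 CPM against 7.96 and 6.09 CPM in HN6, and at 2.16 and 1.79 CPM against 2.65 and 4.31 CPM in HN30, 2.50-fold lower with siFAT1-1 (log2 fold change -1.32 ± 0.34, edgeR adjusted p = 0.0248). With the replicate block the edgeR adjusted p was 0.0799 for SNAI2 and 0.0513 for ZEB2. It was above 0.05 for SNAI2 without any 1 of the HN30 KD libraries or of the HN6 siFAT1-1 libraries, up to 0.140, and for ZEB2 without either HN6 siFAT1-1 library or repeat 2 of either siRNA in HN30, up to 0.0766. CDH3 had an edgeR adjusted p of 0.0633 and 0.0566 without repeat 1 of siFAT1-1 in HN6 and in HN30.

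EPCAM went the other way from CDH1 and CDH3. It was lower with siFAT1-1 than with siFAT1-2, by a log2 difference of -0.47 ± 0.16 with an adjusted p of 0.0620 with edgeR, 0.0481 with limma-voom and 0.0484 with DESeq2, and its libraries did not overlap within a line. CDH1, CDH3, EPCAM, SNAI2 and ZEB2 were the 5 of 10 genes whose siFAT1-1 and siFAT1-2 libraries lay apart in the same direction in both lines, against 33.4% of all genes. For the other 5 the difference of siFAT1-1 and siFAT1-2 was 0.56 ± 0.27 for CDH2, 0.69 ± 0.27 for VIM, -0.07 ± 0.26 for FN1, -0.71 ± 0.46 for SNAI1 and 0.83 ± 0.44 for ZEB1, with edgeR adjusted p from 0.0969 to 0.875. FAT1 itself was lower with siFAT1-1 than with siFAT1-2, at 17.1% against 28.0% of the NC mean in HN6 and at 39.1% against 65.4% in HN30, a log2 difference of -0.73 ± 0.26 with an adjusted p of 0.0759 (edgeR). The part of the depth of knockdown in the differences between the siRNAs was not tested.

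Other genes of both programs were read from 6 lists. In the pooled KD comparison, 2 of 25 epithelial junction and polarity genes were called higher and 0 lower, against 2.10% and 1.11% of all genes, and the median log2 fold change of the list was 0.26 against 0.02 over all genes. PERP, a desmosomal membrane protein, was at 221 and 291 CPM with NC and 516 to 773 CPM with KD in HN6, and at 337 and 203 CPM against 619 to 861 CPM in HN30 (log2 fold change 1.37 ± 0.18, edgeR adjusted p = 0.00749). DSC2, a desmosomal cadherin, had a log2 fold change of 1.02 ± 0.33 (edgeR, adjusted p = 0.186). Of 27 epithelial programme regulators and markers 0 were called in the pooled comparison, of 31 mesenchymal markers 0 and of 19 other EMT regulators 0. Their medians were 0.06, -0.09 and 0.01. Of 40 partial EMT genes described in head and neck carcinoma 2 were called higher and 1 lower, with a median of -0.19. Among them the collagen gene COL5A2 was called higher (2.65 ± 0.47, edgeR adjusted p = 0.0263). Of 13 squamous identity genes 1 was called higher, the desmosomal cadherin gene DSG3 (1.32 ± 0.36), and 0 lower, with a median of 0.23.

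Between the lines, of 31 mesenchymal markers 14 were called lower and 5 higher in HN30 NC, against 14.3% and 16.2% of all genes, with a median log2 fold change of -0.79 against 0.01 over all genes. SPARC, a matrix glycoprotein, was at 674 and 652 CPM in HN6 NC and at 0.113 and 0.253 CPM in HN30 NC (edgeR, adjusted p = 9.05e-06), and COL6A2 at 1173 and 707 against 46.1 and 16.7 CPM. Against this direction SPOCK1 was at 17.2 and 2.43 CPM in HN6 NC and at 81.7 and 80.6 CPM in HN30 NC (log2 fold change 3.05 ± 0.69, edgeR adjusted p = 0.00931). Of 40 partial EMT genes 11 were called lower and 4 higher, with a median of -0.54, and 7 of the listed genes are also in the mesenchymal list. Of 19 other EMT regulators 4 were called lower and 3 higher. The repressor gene TWIST2 was at 4.88 and 3.39 CPM in HN6 NC and had no count in the HN30 NC libraries, which makes it at least 48.7-fold lower when 3 counts per library are taken as the floor. The E-protein gene TCF4 was at 1.398 and 0.395 CPM in HN6 NC and at 11.3 and 10.3 CPM in HN30 NC (log2 fold change 3.60 ± 0.55, edgeR adjusted p = 0.00135).

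Of 25 junction and polarity genes 4 were called higher and 2 lower in HN30 NC, with a median of 0.08. The desmoplakin gene DSP was higher in HN30 (1.55 ± 0.25, edgeR adjusted p = 0.00182) and the tricellular junction gene LSR (-1.66 ± 0.21, adjusted p = 0.000479) was lower. Of 27 epithelial programme regulators and markers 5 were called higher and 4 lower, with a median of 0.16. KRT19, a keratin of simple epithelia, was at 658 and 930 CPM in HN6 NC and at 0.566 and 1.34 CPM in HN30 NC (edgeR, adjusted p = 1.29e-05), and KRT7 at 2353 and 3492 against 106 and 97.4 CPM. KRT19 and VIM were thus both abundant in HN6 and near absent in HN30. Of 13 squamous identity genes 2 were called higher and 7 lower, with a median of -1.07. KRT14 of this list had a mean of 2.07 CPM in HN6 NC and no count in the HN30 NC libraries. It was at least 24.3-fold lower when 3 counts per library are taken as the floor. Against the direction of most called genes of the list, TP63, the master regulator of squamous basal cells, was higher in HN30. It was at 27.6 and 36.2 CPM in HN6 NC and at 224 and 253 CPM in HN30 NC (log2 fold change 2.90 ± 0.34, edgeR adjusted p = 0.000321).

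**Figure D5:**
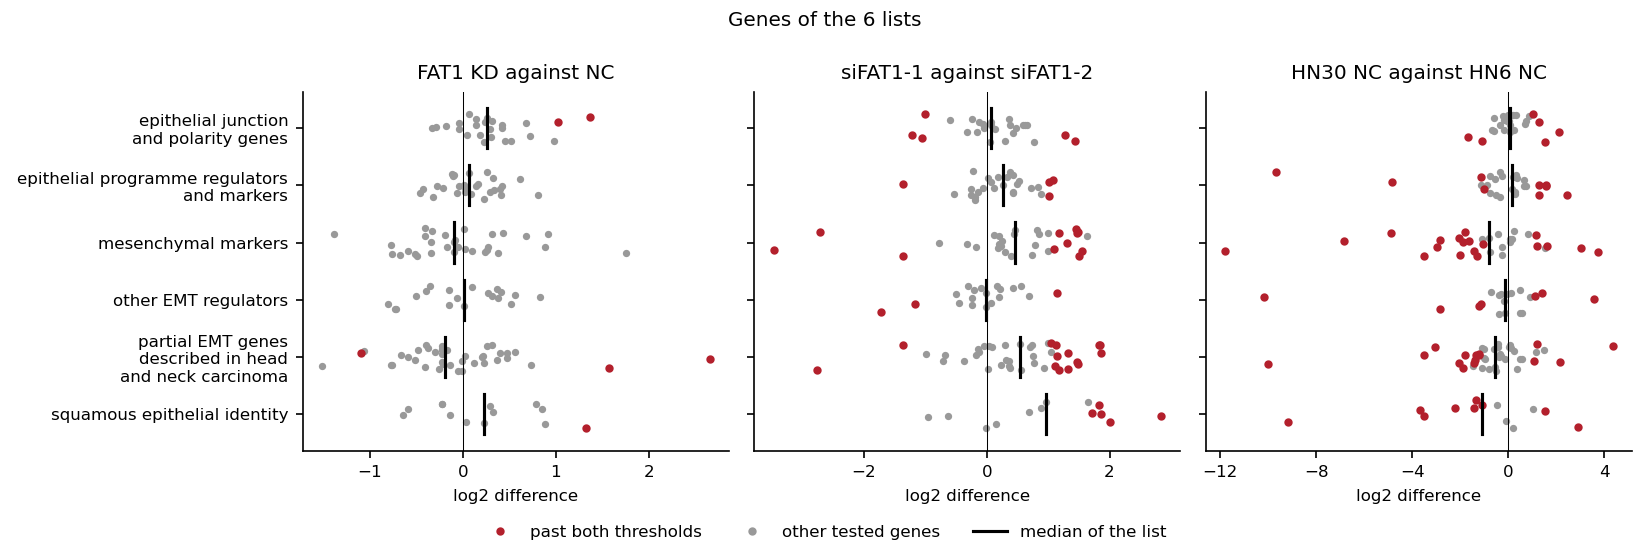
Log2 difference of each tested gene of the 6 lists for FAT1 KD against NC, siFAT1-1 against siFAT1-2 and HN30 NC against HN6 NC. Red points pass both thresholds of the study and black lines are list medians. The mesenchymal median lies at -0.09, 0.46 and -0.79 in the 3 panels, and the squamous median at 0.23, 0.97 and -1.07.

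The genes most like CDH1 and VIM in their pattern were found by the lower of the Pearson correlations of log2 CPM over the 6 libraries of each line. For CDH1 they were C2orf54 (0.953 in HN6, 0.956 in HN30), STAMBP (0.953, 0.972) and COL24A1 (0.934, 0.941), and for VIM the closest were MYZAP (0.941, 0.952) and ANTXR2 (0.945, 0.936). They are the top of a ranking over all 14360 genes with 6 points each, which share their libraries and repeats, and describe these libraries only.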

How the data were processed

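Poly(A) RNA of 12 libraries was sequenced. Per the methods of the study, reads with poly-N, duplicates and low quality were removed and the rest mapped to hg38. The submitters' processing notes name HISAT2 and featureCounts, with no version or role, and the use of strand was not given in the sources used here. 8 of the 10 genes overlap an annotated gene on the other strand, introns included, such as VIM-AS1, ZEB1-AS1 and ZEB2-AS1. If the counting did not use strand, reads from such overlaps cannot be told apart. The authors deposited whole-number counts per gene without normalization (0 columns of per-sample values were left out, and 27 symbols had been turned into dates).

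CPM values were scaled with TMM over all 12 libraries, and RPKM was computed from them with GENCODE 44 canonical transcript lengths. Genes were filtered with filterByExpr (minimum count 10) and tested with edgeR 4.0.16 in R 4.3.3 (glmQLFit, glmQLFTest), with cell line as a term where both lines entered and Benjamini-Hochberg adjustment over all genes. Intervals are 2 SE. The line comparison used the means of the 6 conditions. Depth was 26430049 to 47639010 counts per library, and the scarcest members, VIM and ZEB1 in HN30, rest on 11 to 77 counts a library. Nothing in the labels says whether repeats came from separate frozen stocks or passages, and p-values measure the spread between these libraries. The steps of the pooled KD and line comparisons were run on simulated counts. Apart from genes changed on purpose, each gene had the same mean in all libraries. The simulation thus held no other line or siRNA difference and no outlying control, and does not bear on these. Summaries used pandas 2.3.3 and numpy 2.4.6 under Python 3.11.15, and figures matplotlib 3.10.9.

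The members and lists were chosen with earlier results of these data known. Named were the 10 members, FAT1, from each list up to 2 called genes a direction with the smallest P in the pooled KD and the line comparisons (some are not reported here), and up to 3 genes most like CDH1 and VIM. The titles mark the repeats as time1 and time2, and whether these numbers pair the libraries within a line is not stated. Across genes, the deviations from the group mean in libraries of equal number correlated at 0.0800, 0.216 and 0.221 in HN6 and at -0.0312, 0.393 and -0.0252 in HN30. The alternatives were a replicate block, DESeq2 1.42.0 (size factors and Wald test), limma-voom, other filters, other terms and leaving out each library.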

Additional observations from a re-analysis of the deposited data

How the results depend on the processing

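Over 1250 alternative values of the 10 genes, 1120 kept their direction and their side of the thresholds, 94 changed sign, 13 lost the thresholds and 23 gained them, and the cause was not tested. The gene calls moved beyond 1.5 times in these settings: 249 genes for KD without the cell line term against 460, 340 to 1588 within HN6 (main 435, the highest without repeat 1 of NC) and 327 to 804 within HN30 (main 560, the lowest without repeat 1 of NC) when single libraries were left out, and 178 to 1455 for the interaction (main 269, the highest without repeat 1 of HN6 NC). At an adjusted p under 0.05, the replicate block gave 44, 152, 340, 2495 and 4715 genes for KD, siFAT1-1, siFAT1-2, siFAT1-1 against siFAT1-2 and the lines, against 75, 591, 157, 2995 and 4500 without it, and limma-voom 94, 727, 361, 3323 and 5129, and DESeq2 638, 1646, 1594, 4209 and 5524. Leaving out single libraries gave 1 to 60, 24 to 1566, 0 to 248, 1290 to 3361 and 2289 to 5502 genes (edgeR), so the shares of all genes at an adjusted p under 0.05 depend on single libraries. The lowest counts were those without repeat 1 of HN30 NC, repeat 2 of HN30 siFAT1-1, repeat 1 of HN6 NC, repeat 1 of HN30 siFAT1-1 and repeat 2 of HN30 NC. For siFAT1-2 the same lowest count was also reached without either HN30 NC library and without either HN30 siFAT1-2 library. Apart from FAT1, VIM, ZEB1, CDH1, SNAI2 and ZEB2 as given above, the replicate block changed no call. VIM also missed the thresholds in the pooled comparison with DESeq2 (-0.99) and without the cell line term (-1.23), and ZEB2 passed them for siFAT1-1 without a filter and for the lines without a filter and with DESeq2. SNAI2 between the lines had an adjusted p of 0.0683 (edgeR) with the 4 NC libraries alone. The log2 fold changes that changed sign are listed by comparison. In the pooled KD comparison these were for CDH3 -0.000456 (no filter), -0.0381 (limma-voom). In KD within HN6 these were CDH3 0.0344 (DESeq2 size factors), 0.049 (DESeq2), 0.0142 (replicate block), SNAI2 0.0427 (limma-voom), 0.00579 (DESeq2), 0.0156 (replicate block) and ZEB1 0.72 (limma-voom), 0.44 (replicate block). In KD within HN30 these were CDH3 -0.0194 (limma-voom), -0.0188 (6 condition means) and ZEB2 -0.0468 (limma-voom), -0.0445 (6 condition means). In siFAT1-2 against NC these were ZEB1 0.41 (limma-voom), 0.23 (replicate block). In the interaction of line and KD these were CDH3 -0.00782 (DESeq2 size factors), -0.00783 (DESeq2), -0.0055 (replicate block), FN1 0.16 (limma-voom), 0.12 (replicate block) and ZEB1 -0.0435 (limma-voom). In HN30 NC against HN6 NC these were EPCAM -0.18 (means of 3 conditions). When single libraries were left out, the lowest and highest values of genes that changed sign were for the pooled KD comparison CDH3 -0.0948 to 0.10, FN1 -0.11 to 0.44, SNAI1 -0.35 to 0.37, ZEB2 -0.75 to 0.39. They were for KD within HN6 CDH3 -0.25 to 0.28, FN1 -0.0815 to 0.25, SNAI1 -1.02 to 0.41, SNAI2 -0.40 to 0.47, ZEB1 -0.86 to 2.26, ZEB2 -1.68 to 1.14. They were for KD within HN30 CDH3 -0.11 to 0.14, VIM -1.37 to 0.36, FN1 -0.47 to 1.05, SNAI1 -0.077 to 0.96, ZEB2 -0.30 to 0.22. They were for siFAT1-1 against NC FN1 -0.21 to 0.36. They were for siFAT1-2 against NC CDH1 -0.13 to 0.23, FN1 -0.069 to 0.55, SNAI1 -0.12 to 0.68, SNAI2 -0.0484 to 0.38, ZEB1 -0.47 to 0.78, ZEB2 -0.24 to 0.90. They were for siFAT1-1 against siFAT1-2 FN1 -0.32 to 0.13. They were for the interaction of line and KD CDH1 -0.79 to 0.14, CDH3 -0.28 to 0.25, VIM -0.32 to 1.58, FN1 -0.59 to 0.93, SNAI1 -0.0605 to 1.37, ZEB1 -1.32 to 1.79, ZEB2 -1.12 to 1.7. They were for HN30 NC against HN6 NC CDH1 -0.80 to 0.13, EPCAM -0.0761 to 0.34, ZEB2 -2.43 to 0.39.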

Other observations

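Of the 6 gene lists, squamous identity had the largest median difference between the siRNAs. Of 13 genes tested 5 were called higher with siFAT1-1 than with siFAT1-2 and 0 lower, against 7.44% and 5.46% of all genes, with a median log2 difference of 0.97 against -0.02 over all genes. The 5 were the keratin genes KRT5 (2.00), KRT6A (1.83) and KRT17 (2.84), the plakophilin gene PKP1 (1.71) and SFN (1.86), named here after their values were seen. The summed level of the list was 5380 and 4270.0 CPM with siFAT1-1 and 1050.0 and 2100.0 CPM with siFAT1-2 in HN6, around controls at 2570.0 and 3300.0 CPM. In HN30 it was 2600.0 and 2480.0 CPM with siFAT1-1, 763 and 1230.0 CPM with siFAT1-2 and 1900.0 and 1640.0 CPM with NC. Of 40 partial EMT genes 12 were called higher and 2 lower with siFAT1-1, and of 31 mesenchymal markers 8 and 3, with medians of 0.55 and 0.46.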
